A study of Mus musculus with 10 samples.

Results

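Carboxylesterases are serine hydrolases of the endoplasmic reticulum that cleave ester bonds in drugs, xenobiotics and neutral lipids, and the liver is one of their main sites of expression. In the mouse the family has expanded by tandem duplication into a Ces1 group and a Ces2 group, with the Ces3, Ces4 and Ces5 genes beside them. Several Ces1 enzymes act on stored triglyceride and supply lipid for the assembly of very low density lipoprotein (VLDL), and several Ces2 enzymes cleave triglycerides and diglycerides as well as drug esters. The 10 genes described are Ces1c, Ces1d, Ces1e, Ces1f, Ces1g, Ces2a, Ces2c, Ces2e, Ces3a and Ces3b, taken by symbol from a table of 56748 genes. No symbol among them was repeated, so the rule of keeping the copy with the highest mean was not needed. They are 10 of the 20 genes in the table whose symbol starts with Ces and a digit, and they were chosen by their FPKM in these same libraries, with the differences between groups already known, so these differences are a description and support nothing by themselves.

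RNA was sequenced from 4 normal livers of wild-type FVB mice, from 3 hepatocellular carcinomas driven by Akt and Nras (Akt/Nras tumours) and from 3 in which Foxo1AAA was injected as well (Akt/Nras/Foxo1AAA tumours). All tumours were made by hydrodynamic tail vein injection, a fast injection of DNA into the tail vein that brings it into hepatocytes, so the oncogenes act in injected hepatocytes of an otherwise wild-type liver. Every sample carries the genotype label WT, and neither the age and sex of the mice, the promoters of the injected DNA nor the species of the inserts is given. AKT phosphorylates FOXO1 and keeps it out of the nucleus, and Foxo1AAA is a form that AKT can no longer inhibit. The titles write FoxoAAA and the protocol Foxo1AAA. Whether each replicate is another mouse is not stated in the labels, and p-values therefore measure only how these samples spread, which may be technical.

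Behind each library lay 13.6 to 21.3 M reads. Levels are given as FPKM, fragments per kilobase of gene scaled between libraries. Foxo1, whose modified form was injected, lay between 6.75 and 8.02 FPKM in normal liver and between 5.37 and 6.05 with Akt/Nras. It lay between 77.9 and 125 once Foxo1AAA was added, and reads of the injected and the resident gene cannot be told apart. All 16 hepatocyte markers were present in every group, and Alb, the gene of serum albumin, averaged 37775 FPKM in normal liver, 19328 in the Akt/Nras group and 24238 in the group with Foxo1AAA. In bulk tissue, fewer cells of a type and less RNA per cell cannot be told apart. Tests were made with limma on log2(FPKM + 1) over the 12439 genes with at least 1 FPKM in at least 3 of 10 libraries, a scale that understates the change of low genes, and calls were made below an adjusted p of 0.05. All 10 members passed this filter, whereas folds are ratios of mean FPKM. After a ± stands the limma SE for a log2 change and the SD for FPKM, percents and ratios. The FPKM totals of the groups differed. In the first normal liver (17.5 M reads) 1 read per kilobase of gene stood for 0.0854 FPKM, but in the first Akt/Nras tumour (16.2 M reads) for 0.0608. The values were thus not scaled by these read totals alone, and what else went into the scaling was not given. Rescaling to equal totals replaces that scaling. Rescaling every library to an equal total moved the median log2 change over all tested genes from -0.07 to 0.72 (Akt/Nras against normal liver), from -0.09 to 0.48 (Akt/Nras/Foxo1AAA against normal liver) and from -0.01 to -0.22 (tumours with against tumours without Foxo1AAA). Calls followed: 4716 lower and 3871 higher became 1643 and 9001 in the first of these comparisons, 4544 and 3330 became 1611 and 7902 in the second, and 514 and 986 became 3383 and 669 in the last.

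All family genes lie on chromosome 8 in 2 blocks. By the coordinates in the table, whose genome build is not stated, the Ces1 and Ces5 genes form a block of 9 genes on the minus strand (93746842 to 94262458), which holds 5 members. The Ces2, Ces3 and Ces4 genes form a block of 11 genes on the plus strand (105460635 to 105876741), which holds the other 5. RefSeq promoter windows of build GRCm38.p6 were matched by symbol for 7 of the 10 members, and those of Ces1d, Ces1f and Ces3a are not shown. The window coordinates differ from the deposited ones, in which Ces1c spans 93825643 to 93857911, although the submitters' notes list GRCm38. Positions in the 2 sets therefore cannot be compared. The windows below hold the 250 bases before the transcript start, written 5′ to 3′ on the strand of the gene. Ces3b is shown because it had the lowest Akt/Nras level, Ces1c because it was the leading tumour transcript, and Ces2a and Ces2e because these genes of 1 block had unlike tumour levels. Capitals mark matches on either strand to the core promoter motif TATAAA, the CCAAT box, the forkhead core TGTTTA, the nuclear receptor half-site AGGTCA and GTTAAT, a half-site of the hepatocyte factor HNF1.
Ces3b, chr8:105083505-105083754, plus strand: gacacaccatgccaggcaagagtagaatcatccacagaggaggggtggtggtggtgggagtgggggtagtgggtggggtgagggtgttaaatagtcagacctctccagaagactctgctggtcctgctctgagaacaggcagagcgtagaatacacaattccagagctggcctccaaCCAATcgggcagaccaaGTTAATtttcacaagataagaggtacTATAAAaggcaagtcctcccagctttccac
Ces1c, chr8:93131284-93131533, minus strand: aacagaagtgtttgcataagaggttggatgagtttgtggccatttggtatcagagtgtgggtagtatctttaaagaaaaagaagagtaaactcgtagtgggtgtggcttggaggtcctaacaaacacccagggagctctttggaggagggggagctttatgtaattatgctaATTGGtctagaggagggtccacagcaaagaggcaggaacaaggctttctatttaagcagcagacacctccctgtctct
Ces2a, chr8:104733753-104734002, plus strand: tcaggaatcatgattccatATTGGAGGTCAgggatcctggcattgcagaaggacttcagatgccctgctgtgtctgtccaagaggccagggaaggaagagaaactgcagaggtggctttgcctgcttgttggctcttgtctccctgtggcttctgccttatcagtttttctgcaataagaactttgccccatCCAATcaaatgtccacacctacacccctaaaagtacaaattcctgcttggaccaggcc
Ces2e, chr8:104926010-104926259, plus strand: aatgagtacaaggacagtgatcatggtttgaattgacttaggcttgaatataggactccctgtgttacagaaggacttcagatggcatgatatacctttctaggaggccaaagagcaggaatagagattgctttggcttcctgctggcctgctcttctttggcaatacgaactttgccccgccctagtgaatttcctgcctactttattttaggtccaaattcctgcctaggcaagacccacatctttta

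The Ces3b window held a CCAAT box that began 73 bases before the start, an HNF1 half-site at 56 and the core promoter motif at 30. The Ces1c window held 1 CCAAT box in reverse orientation, 78 bases before the start. In the Ces2a window an AGGTCA half-site, which began 226 bases before the start, directly followed a reverse CCAAT box, and a second CCAAT box began at 58. The Ces2e window held none of the 5 motifs. Aligned over their whole length, the Ces2a and Ces2e windows were identical at 57.3% of positions and those of Ces2a and Ces2c at 67.1%. Among the 7 windows a CCAAT box was found in 5 (Ces1c, Ces1g, Ces2a, Ces2c and Ces3b), against 33.9% of 32841 windows of the same length from all genes. TATAAA was found in Ces1g and Ces3b (12.4% of all windows), TGTTTA in Ces1g (12.0%), AGGTCA in Ces2a (14.0%) and GTTAAT in Ces3b (6.43%). These are matches of letters, not shown binding sites.

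In normal liver the 10 genes together reached 4670 ± 162 FPKM (SD, n = 4), led by Ces3a and Ces1c. The sum was 228 ± 53.7 FPKM (n = 3) in Akt/Nras tumours, 20.5-fold lower, and 504 ± 122 (n = 3) in Akt/Nras/Foxo1AAA tumours, 9.27-fold lower. Of the FPKM total of a library, the members made up 0.652 ± 0.0138% in normal liver, 0.0623 ± 0.0130% in Akt/Nras tumours and 0.115 ± 0.0245% in Akt/Nras/Foxo1AAA tumours. Set against albumin, they gave 124 ± 6.71 FPKM per 1000 Alb FPKM in normal liver, 11.9 ± 3.15 in Akt/Nras tumours and 20.6 ± 2.58 in Akt/Nras/Foxo1AAA tumours. By each of these measures all tumour libraries lay below all normal livers, and the Akt/Nras/Foxo1AAA libraries lay above the Akt/Nras libraries.

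Against normal liver, 9 of the 10 genes fell in Akt/Nras tumours and none rose, in a comparison in which limma called 69.0% of all tested genes (37.9% lower and 31.1% higher). The same 9 fell in Akt/Nras/Foxo1AAA tumours and Ces2e rose, where 63.3% of all genes were called (36.5% lower and 26.8% higher). Between the tumour groups 7 were higher in Akt/Nras/Foxo1AAA tumours and none was lower, where 12.1% of all genes were called (7.93% higher and 4.13% lower). The median log2 change of the members was -4.49, -3.94 and 1.23 in these comparisons. The comparisons share libraries, since both tumour groups were set against the same normal livers. At equal totals the counts were 9 lower and 1 higher, 8 lower and 1 higher, and 7 higher. Of all 12728 genes then tested, 1643 were lower and 9001 higher, 1611 and 7902, and 3383 and 669. With only the 6 tumour libraries in the fit, none of the 10 was called between the tumour groups, although 7 passed an unadjusted p of 0.05 (limma; lowest adjusted p = 0.0522), and over all genes 5 were then called lower and 5 higher. The differences between tumour groups given below for Ces1b, Pon1, Lipc, Apoa4 and Cebpa were not called in that fit either. When all 10 libraries are fitted, the SE between tumour groups also draws on the normal livers. There the members' highest value over their lowest had a median of 1.26, against 2.06 with Akt/Nras and 1.57 with Akt/Nras/Foxo1AAA. The part of this in the lost calls was not tested. Limma's voom method on the recovered reads, with all 10 libraries, called 7 members higher and none lower between the tumour groups. Of all 12439 genes it called 779 higher and 2780 lower there.

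**Figure D1:**
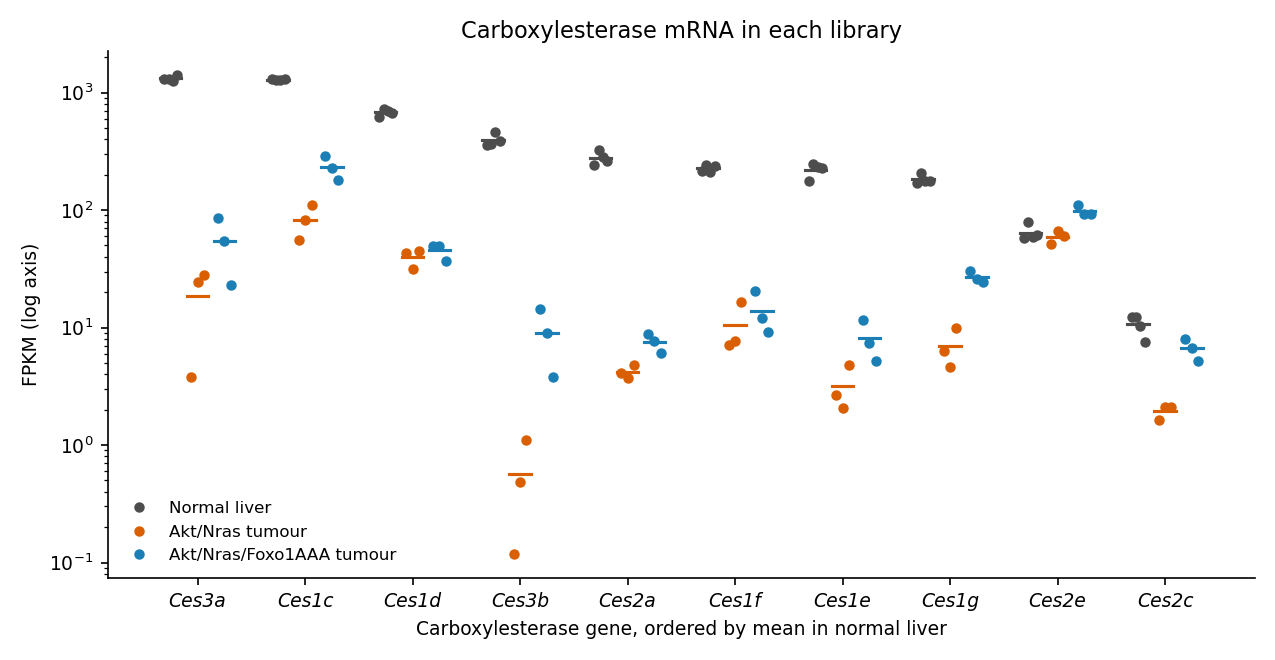
FPKM of each carboxylesterase gene in each library on a log axis, with genes ordered by their mean in normal liver; points are libraries and bars are group means. Tumour points lie below the normal livers for every gene except Ces2e, and for Ces2c the Akt/Nras/Foxo1AAA points reach into the normal range.

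Ces3a and Ces3b, microsomal esterases encoded side by side, had the largest falls in Akt/Nras tumours. Ces3b measured 355, 367, 460 and 388 FPKM in the normal livers, 0.119, 0.482 and 1.10 in the Akt/Nras tumours and 14.3, 8.94 and 3.82 in the Akt/Nras/Foxo1AAA tumours. No value of 1 group reached into another. Mean Ces3b was 693-fold lower in Akt/Nras tumours (log2 change of -8.01 with an SE of 0.34, limma adjusted p = 2.12e-08) and 43.5-fold lower in Akt/Nras/Foxo1AAA tumours (-5.44 ± 0.34, adjusted p = 4.06e-07). The Akt/Nras values rest on few reads, 5 to 60 per library, against 8441 to 11281 reads in each normal liver and 140 to 667 in each Akt/Nras/Foxo1AAA tumour. Between the tumour groups Ces3b was 15.9-fold higher with Foxo1AAA (log2 change 2.57 ± 0.36, limma adjusted p = 0.00416), the largest log2 difference of the family. Both folds that use the Akt/Nras mean moved without the third Akt/Nras library, where Ces3b was 1306-fold lower than normal liver and 30.0-fold higher with Foxo1AAA; leaving out any other single library moved no fold of the members by over 1.5 times.

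Ces3a was the most abundant member in normal liver, at 1300, 1319, 1254 and 1421 FPKM. It measured 3.82, 24.5 and 27.9 FPKM in the Akt/Nras tumours and 86.3, 55.0 and 22.8 in the Akt/Nras/Foxo1AAA tumours. The tumour groups overlapped, because the lowest Akt/Nras/Foxo1AAA library lay below 2 of the Akt/Nras libraries. Its mean was 70.7-fold lower in Akt/Nras tumours (log2 change of -6.44 with an SE of 0.59, limma adjusted p = 3.47e-06) and 24.2-fold lower in Akt/Nras/Foxo1AAA tumours (-4.76 ± 0.59, adjusted p = 4.61e-05). The difference between tumour groups was not called (log2 1.68, 95% confidence interval 0.29 to 3.07, adjusted p = 0.108). Without the third Akt/Nras/Foxo1AAA library it was 2.20 with an adjusted p of 0.0445, and with libraries weighted by their quality it was 1.23 with an adjusted p of 0.0298. In every other setting it stayed uncalled, with log2 changes down to 0.85 and limma adjusted p up to 0.324. Within libraries, the ratio of Ces3a to Ces3b FPKM was 3.41 ± 0.456 in normal liver, 36.1 ± 13.1 in Akt/Nras tumours and 6.05 ± 0.0872 in Akt/Nras/Foxo1AAA tumours, so the genes did not fall by equal factors. The transcripts of the pair share sequence: 25.6% of the 50-base stretches of Ces3a occur in Ces3b and 26.2% of those of Ces3b in Ces3a, so how reads were split between them is uncertain.

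Ces1c, the carboxylesterase secreted into mouse plasma, was even across the normal livers, at 1295, 1284, 1281 and 1306 FPKM. The Akt/Nras tumours had 55.8, 81.6 and 111 FPKM, and the Akt/Nras/Foxo1AAA tumours had 289, 230 and 179. The 3 groups were separate. Mean Ces1c was 15.6-fold lower in Akt/Nras tumours (log2 change of -4.00 with an SE of 0.21, limma adjusted p = 8.56e-08) and 5.55-fold lower in Akt/Nras/Foxo1AAA tumours (-2.50 ± 0.21, adjusted p = 3.51e-06). It was 2.81-fold higher with Foxo1AAA than without (1.51 ± 0.23, limma adjusted p = 0.00563). Of its 50-base stretches 8.18% also occur in Ces1b, which lies next to it.

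Ces1d, also known as triacylglycerol hydrolase, mobilises stored triglyceride for VLDL secretion. It measured 622, 722, 699 and 676 FPKM in normal liver, 43.4, 31.2 and 45.3 in Akt/Nras tumours and 49.7, 49.8 and 37.0 in Akt/Nras/Foxo1AAA tumours. Tumour levels were alike in range and far below normal liver, with mean levels 17.0-fold and 14.9-fold lower (limma adjusted p = 9.24e-09 and 2.47e-08). Unlike the called members, Ces1d showed a difference between tumour groups near 0 (log2 0.19, 95% confidence interval -0.16 to 0.53, limma adjusted p = 0.469), and its sign turned at equal totals (-0.06). The within-library ratio of Ces1c to Ces1d was 1.91 ± 0.134 in normal liver, 2.12 ± 0.724 in Akt/Nras tumours and 5.09 ± 0.632 in Akt/Nras/Foxo1AAA tumours.

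Ces1g, whose loss in mice raises liver and blood lipids, measured 171, 208, 176 and 178 FPKM in normal liver. It measured 6.34, 4.64 and 9.88 FPKM in Akt/Nras tumours and 30.5, 25.8 and 24.7 in Akt/Nras/Foxo1AAA tumours. Every Foxo1AAA library lay above every Akt/Nras library, and both groups lay below normal liver. The means were 26.4-fold and 6.79-fold lower than normal liver (limma adjusted p = 1.83e-08 and 8.17e-07). With Foxo1AAA the level was 3.88-fold that without it (log2 change 1.86 ± 0.20, limma adjusted p = 0.00194), the lowest adjusted p of the family between the tumour groups.

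Ces1e, also called egasyn, holds beta-glucuronidase in the endoplasmic reticulum. It had 177, 247, 232 and 228 FPKM in normal liver, 2.69, 2.06 and 4.82 in Akt/Nras tumours and 11.7, 7.34 and 5.21 in Akt/Nras/Foxo1AAA tumours, and the groups did not overlap. It fell 69.2-fold and 27.3-fold (limma adjusted p = 3.15e-08 and 2.11e-07). It was 2.53-fold higher in Akt/Nras/Foxo1AAA than in Akt/Nras tumours (log2 1.11 ± 0.28, limma adjusted p = 0.0298). This call was lost without the first or the second Akt/Nras library (adjusted p = 0.0837 and 0.0827), without the first or the second Akt/Nras/Foxo1AAA library (0.104 and 0.0766) and with no filter on low genes (0.0802).

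Ces1f, a second triglyceride hydrolase of the Ces1 block, measured 214, 243, 211 and 236 FPKM in normal liver. Its tumour levels were 7.14, 7.72 and 16.5 FPKM with Akt/Nras and 20.6, 12.0 and 9.21 with Akt/Nras/Foxo1AAA. The tumour groups overlapped. Ces1f fell 21.6-fold and 16.2-fold against normal liver (limma adjusted p = 3.15e-07 and 1.07e-06), and the difference between tumour groups was not called (log2 0.40, 95% confidence interval -0.28 to 1.08, adjusted p = 0.422).

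In the Ces2 group the members went different ways. Ces2a, a lipid and drug ester hydrolase, measured 241, 324, 285 and 263 FPKM in normal liver, 4.07, 3.72 and 4.83 in Akt/Nras tumours and 8.80, 7.73 and 6.08 in Akt/Nras/Foxo1AAA tumours. The 3 groups were separate, with a narrow spread in the tumours. Ces2a fell 66.0-fold and 36.9-fold (log2 change -5.74 ± 0.14 SE and -5.03 ± 0.14, limma adjusted p = 1.15e-09 and 4.16e-09), the lowest adjusted p-values of the family. It was 1.79-fold higher with Foxo1AAA (log2 0.71 ± 0.14, limma adjusted p = 0.0141), a call lost without the first (adjusted p = 0.0584) or the second Akt/Nras/Foxo1AAA library (0.0539).

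Ces2e, another lipid hydrolase, is encoded in the same block and transcribed in the same direction as Ces2a. It measured 57.6, 79.8, 59.2 and 60.9 FPKM in normal liver, 51.5, 66.0 and 60.3 in Akt/Nras tumours and 110, 92.4 and 92.9 in Akt/Nras/Foxo1AAA tumours. The Akt/Nras tumours overlapped the normal livers, with 1 tumour (51.5) below all of them, and the Foxo1AAA tumours lay above both groups. Between Akt/Nras tumours and normal liver Ces2e was not called (log2 -0.11, 95% confidence interval -0.41 to 0.18, limma adjusted p = 0.467), but at equal totals it was higher (log2 0.84, adjusted p = 8.75e-05). The median log2 change of all tested genes was then 0.72, and 9001 of 12728 genes were called higher. Ces2e rose 1.53-fold in Akt/Nras/Foxo1AAA tumours against normal liver (log2 0.61 ± 0.13, limma adjusted p = 0.00213) and exceeded the Akt/Nras tumours 1.66-fold (0.73 ± 0.14, adjusted p = 0.0118). With libraries rescaled to equal Alb the latter difference was not called (log2 0.41, adjusted p = 0.0547). Independent of any scaling between libraries, the ratio of Ces2a to Ces2e FPKM was 4.34 ± 0.329 in normal liver, 0.0719 ± 0.0134 in Akt/Nras tumours and 0.0763 ± 0.00958 in Akt/Nras/Foxo1AAA tumours.

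**Figure D2:**
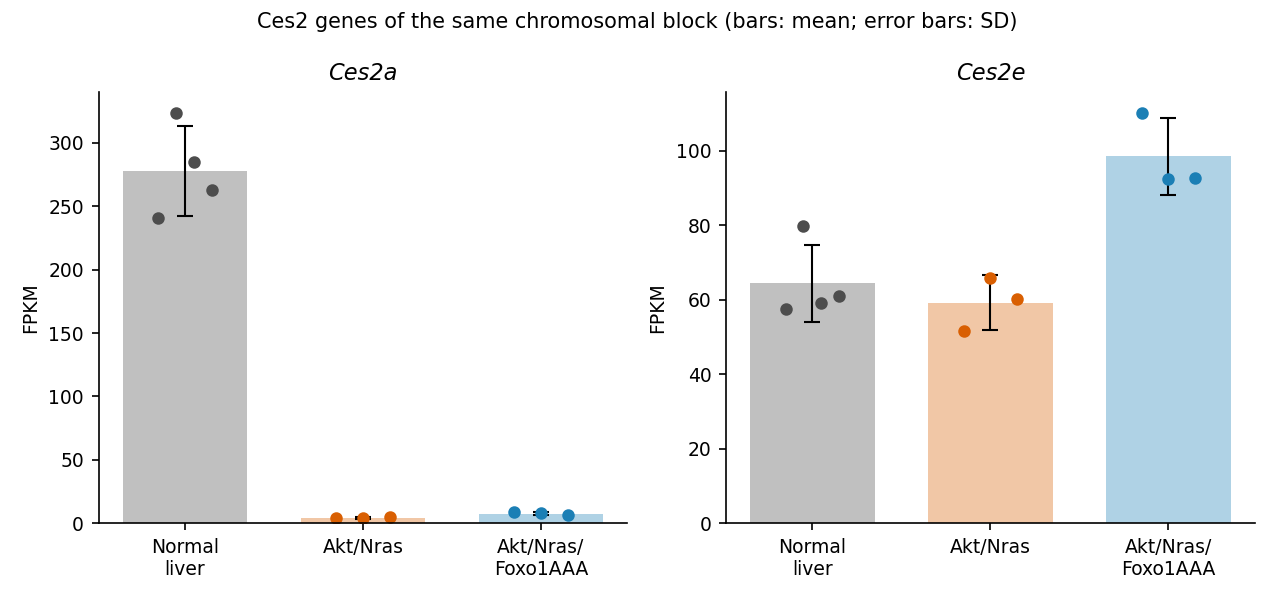
FPKM of Ces2a (left) and Ces2e (right) in each of the 3 groups; points are libraries, bars are means and error bars are SD. Ces2a lies between 241 and 324 FPKM in normal liver and at or below 8.80 in all tumours, whereas Ces2e lies between 51.5 and 110 in every library.

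Ces2c, a liver and intestinal hydrolase of acylglycerols, was the least abundant member in normal liver, at 12.4, 12.2, 10.4 and 7.56 FPKM. It measured 1.64, 2.13 and 2.10 FPKM in Akt/Nras tumours and 8.03, 6.72 and 5.24 in Akt/Nras/Foxo1AAA tumours. The Foxo1AAA libraries were separate from Akt/Nras tumours and overlapped with normal liver. Ces2c fell 5.43-fold in Akt/Nras tumours (log2 -1.96 ± 0.17 SE, limma adjusted p = 2.51e-06) and was 3.40-fold higher in Akt/Nras/Foxo1AAA than in Akt/Nras tumours (1.36 ± 0.18, adjusted p = 0.00398). Against normal liver it was 1.60-fold lower in Akt/Nras/Foxo1AAA tumours (-0.60 ± 0.17, limma adjusted p = 0.0108), a difference that turned to 0.05 at equal totals (adjusted p = 0.803) and was not called without the third Akt/Nras/Foxo1AAA library (-0.46, adjusted p = 0.0505). Of its 50-base stretches 32.7% also occur in the pseudogene Ces2d-ps, so its level is uncertain, although no library had more than 3 reads on that pseudogene.

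**Figure D3:**
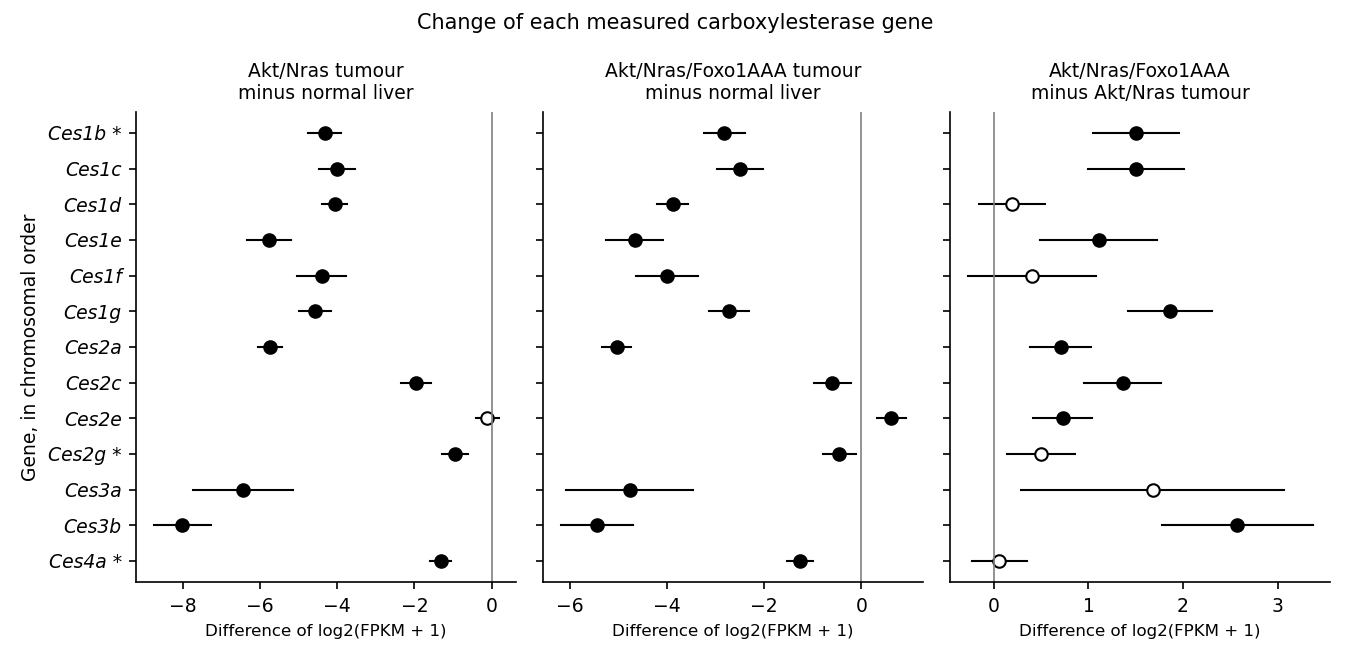
Difference of log2(FPKM + 1) between groups for the 13 tested carboxylesterase genes in chromosomal order, with 95% confidence intervals; filled points were called by limma, open points were not, and asterisks mark the 3 genes outside the set of 10. In the right panel all 13 estimates lie above 0, and those of Ces1d, Ces1f, Ces3a, Ces2g and Ces4a are open.

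Over all 22 alternative settings, 9 members were called lower in Akt/Nras tumours each time and 8 in Akt/Nras/Foxo1AAA tumours, Ces2c being the exception there, and Ces2e was called higher in Akt/Nras/Foxo1AAA tumours against normal liver each time. Between the tumour groups Ces1c, Ces1g, Ces2c and Ces3b were called higher in every setting except the fit on the 6 tumour libraries alone. By library, 9 members were lower in every Akt/Nras tumour than in every normal liver, with 1 overlapping (no overlap in 37.4% of all genes lower and 30.9% higher). With Foxo1AAA, 8 members were lower and 1 higher than all normal livers without overlap (37.5% and 27.9% of all genes). Between tumours 7 members were higher without overlap and 3 overlapped (16.4% of all genes higher and 15.5% lower).

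The make-up of the family differed between the groups. In normal liver Ces3a (28.3 ± 1.42% of the summed FPKM of the 10 genes) and Ces1c (27.7 ± 1.03%) stood together at the top, and Ces2e held 1.38 ± 0.190%. In Akt/Nras tumours Ces1c held 35.7 ± 3.80%, Ces2e 26.6 ± 4.65% and Ces3a 7.64 ± 4.77%. In Akt/Nras/Foxo1AAA tumours Ces1c held 46.2 ± 0.291%, Ces2e 20.1 ± 3.49% and Ces3a 10.2 ± 3.97%. The Ces1 members together went from 55.7 ± 0.485% to 62.8 ± 5.15% and 65.1 ± 1.21%. The Ces2 members went from 7.55 ± 0.796% to 29.4 ± 4.93% and 22.9 ± 3.59%, nearly all of it Ces2e, and the Ces3 members from 36.8 ± 1.23% to 7.86 ± 4.90% and 11.9 ± 4.62%. In order of mean FPKM, normal liver ran Ces3a, Ces1c, Ces1d, Ces3b, Ces2a, Ces1f, Ces1e, Ces1g, Ces2e and Ces2c, where Ces3a and Ces1c overlapped and so did each neighbour from Ces2a to Ces1g. In Akt/Nras tumours the order was Ces1c, Ces2e, Ces1d, Ces3a, Ces1f, Ces1g, Ces2a, Ces1e, Ces2c and Ces3b, with Ces1c and Ces2e overlapping and every neighbour from Ces3a to Ces2c. In Akt/Nras/Foxo1AAA tumours it was Ces1c, Ces2e, Ces3a, Ces1d, Ces1g, Ces1f, Ces3b, Ces1e, Ces2a and Ces2c, with Ces3a and Ces1d overlapping and every neighbour from Ces1f on.

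**Figure D4:**
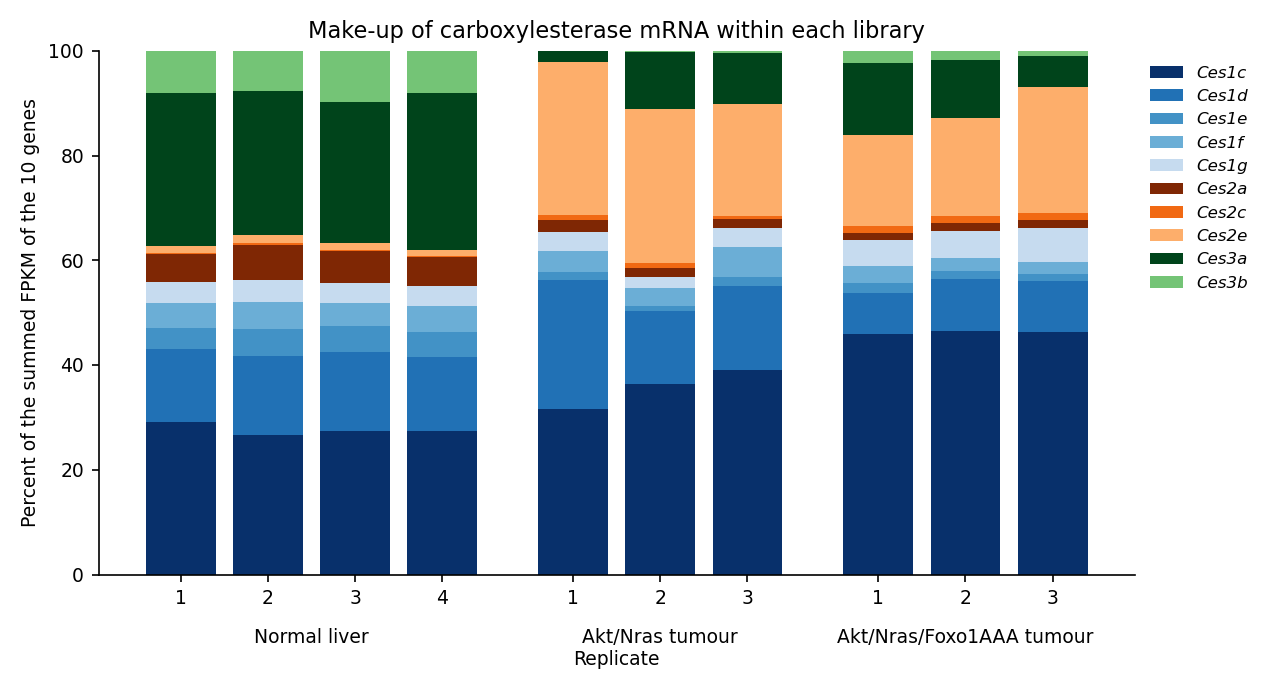
Percent of the summed FPKM of the 10 carboxylesterase genes taken by each gene in each library; blue shades are Ces1 genes, orange shades Ces2 genes and green shades Ces3 genes. Ces3a and Ces3b together take 35.1 to 38.0% in normal livers and 2.23 to 16.0% in tumours, and Ces2e takes 17.5 to 29.4% in tumours.

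Members tended to be high or low in the same library of a group. The third Akt/Nras library had the highest value for 8 of the 10 genes, and the first had the lowest for 6. The first Akt/Nras/Foxo1AAA library was highest for 9 and the third lowest for 9. The highest value over the lowest within a group had a median over members of 1.26 in normal liver, 2.06 in Akt/Nras tumours and 1.57 in Akt/Nras/Foxo1AAA tumours, and was largest for Ces3b in Akt/Nras tumours at 9.26. Summed over the 16 hepatocyte markers, the libraries spanned 93096 to 98647 FPKM in normal liver, 47810 to 48974 with Akt/Nras and 59537 to 73315 with Akt/Nras/Foxo1AAA. In the Akt/Nras/Foxo1AAA group the first library was again the highest and the third the lowest. The Akt/Nras libraries differed little in this sum, which abundant genes such as Alb lead, but single markers did not share 1 order. In Akt/Nras libraries 1 to 3, Cyp2e1 measured 11.7, 71.3 and 114 FPKM and Hpd 30.5, 30.6 and 108. Alb measured 18709, 20890 and 18384 there, and Ahsg 5591, 4660 and 5238. The part of these markers in the carboxylesterase levels was not tested.

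Of the 10 other carboxylesterase genes 3 passed the filter. Ces1b, next to Ces1c, measured 173, 200, 203 and 188 FPKM in normal liver, 6.66, 6.96 and 13.4 in Akt/Nras tumours and 27.4, 27.2 and 24.0 in Akt/Nras/Foxo1AAA tumours. It fell 21.2-fold and 7.29-fold (limma adjusted p = 2.75e-08 and 7.27e-07) and was 2.91-fold higher with Foxo1AAA than without (adjusted p = 0.00406). Ces2g, between Ces2e and Ces3a in the block, lay at 15.9 to 24.6 FPKM in normal liver, 8.05 to 11.8 with Akt/Nras and 13.4 to 15.7 with Akt/Nras/Foxo1AAA. It was 2.02-fold lower in Akt/Nras tumours (log2 -0.95, limma adjusted p = 0.000238) and 1.41-fold lower in Akt/Nras/Foxo1AAA tumours (-0.45, adjusted p = 0.0236), neither of which was called at equal totals (-0.04 and 0.23, adjusted p = 0.808 and 0.171). The second call was also lost without the second (adjusted p = 0.0588) or the third (0.0557) normal liver and without the second (0.0673) or the third (0.0740) Akt/Nras/Foxo1AAA library. Ces4a lay at 1.15 to 1.82 FPKM in normal liver, with at most 4 reads in an Akt/Nras tumour and at most 7 in an Akt/Nras/Foxo1AAA tumour, and it passed the filter through normal liver alone. Ces5a was listed at 0 in every library, and Ces1a, Ces1h, Ces2b, Ces2d-ps, Ces2f and Ces2h had means under 1 FPKM in each group.

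Within 200 kb of a carboxylesterase gene the table lists 63 other genes, of which 21 were tested. Against normal liver 7 of these were called higher and 10 lower by limma in Akt/Nras tumours (31.1% and 37.9% of all genes), and likewise 7 and 10 in Akt/Nras/Foxo1AAA tumours (26.8% and 36.5%), and 1 was called higher between the tumour groups (7.93%). At equal totals, where 1 of the 21 did not pass the filter, the counts were 12 higher and 7 lower, 11 and 7, and 1 and 4. The balance against normal liver thus turned with the scaling, as it did over all genes. Of all 12728 genes then tested, 9001 were higher and 1643 lower, 7902 and 1611, and 669 and 3383. The median log2 changes of the neighbours, as deposited, were -0.17, -0.18 and -0.02. Some neighbours passed the filter through 1 side alone, which limits the direction they could show. Gm45909, Gm45727, Gm45724 and Lrrc29 averaged 2.04, 2.28, 4.65 and 1.45 FPKM in normal liver and under 1 in both tumour groups. Mmp2, Lpcat2, B3gnt9 and Nol3 averaged under 1 FPKM in normal liver. Of the 21 genes 2 overlap a family gene by start and end position (Gm45909 with Ces1d and Gm45724 with Ces3a). Whether their reads can be told apart from those of the family gene was not tested. Among the 19 that overlap none, the lowest log2 changes were those of Gm45910, -2.84 in Akt/Nras and -1.95 in Akt/Nras/Foxo1AAA tumours. The 2 with the highest mean over all libraries were Tmem208 (30.9 FPKM) and Ciao2b (23.5 FPKM).

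The other ester and neutral lipid hydrolases of the liver moved in both directions. Of 23 tested, 14 were called lower and 5 higher in Akt/Nras tumours, 12 and 6 in Akt/Nras/Foxo1AAA tumours, and 5 were higher between the tumour groups, and at equal totals these counts were 10 and 12, 8 and 12, and 1 lower and 5 higher. The median log2 changes of these hydrolases were -0.57, -0.41 and 0.18. For this and the gene lists below, the shares of all tested genes called lower and higher were 37.9% and 31.1% in Akt/Nras tumours. They were 36.5% and 26.8% in Akt/Nras/Foxo1AAA tumours, and 4.13% and 7.93% between the tumour groups. At equal totals 1643 of 12728 genes were lower and 9001 higher, 1611 and 7902, and 3383 and 669. Pon1, the serum paraoxonase made in the liver, went from 340 to 367 FPKM in normal liver to 2.79 to 11.7 in Akt/Nras and 22.4 to 28.3 in Akt/Nras/Foxo1AAA tumours (log2 change -5.63 and -3.75, limma adjusted p = 9.97e-08 and 2.62e-06, and 1.88 between tumours, adjusted p = 0.00855). Lipc, hepatic lipase, went from a mean of 147 FPKM to 11.6 and 27.7 (log2 -3.59 and -2.41, limma adjusted p = 1.54e-07 and 4.10e-06, and 1.18 between tumours, adjusted p = 0.0110). Abhd2, an acylglycerol lipase, rose from a mean of 15.2 FPKM to 71.6 and 76.8 (log2 2.16 and 2.26, limma adjusted p = 5.11e-08 and 7.73e-08).

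Among genes of triglyceride synthesis, lipid droplets and VLDL assembly, 23 of 24 were tested. Against normal liver 15 fell and 3 rose in Akt/Nras tumours and 12 fell and 4 rose in Akt/Nras/Foxo1AAA tumours, and 10 were higher and none lower with Foxo1AAA than without, by limma. At equal totals the counts were 7 lower and 10 higher, 4 and 11, and 6 higher. As over all genes, the balance of this list against normal liver thus turned with the scaling. Its median log2 changes, as deposited, were -1.02, -0.39 and 0.50. Apoa4, a lipoprotein protein induced by hepatic lipid, went from a mean of 98.9 FPKM in normal liver to 404 with Akt/Nras and 1557 with Akt/Nras/Foxo1AAA (log2 1.99 and 3.73, limma adjusted p = 0.00127 and 1.93e-05). Its difference between tumour groups (log2 1.74, adjusted p = 0.0293) was not called without the first or second library of either tumour group (adjusted p = 0.0662 and 0.0813 for Akt/Nras, 0.0832 and 0.0878 for Akt/Nras/Foxo1AAA). Cidec, a lipid droplet fusion protein, rose from a mean of 2.22 FPKM to 10.1 and 21.9 (log2 1.80 and 2.61, limma adjusted p = 0.00141 and 0.000137). Fitm1, which helps to partition fat into droplets, fell from a mean of 65.4 FPKM to 4.25 and 13.5 (log2 -3.68 and -2.33, limma adjusted p = 1.09e-06 and 4.68e-05).

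Transcription factors and receptors of the liver, several of them known regulators of carboxylesterase genes, were lower in most cases as deposited but not at equal totals. Of 29 tested, 21 fell and 4 rose in Akt/Nras tumours, 21 fell and 3 rose in Akt/Nras/Foxo1AAA tumours, and 8 were higher and 1 lower between the tumour groups, whereas at equal totals the counts were 9 and 7, 10 and 7, and 6 higher and 4 lower. Foxo1, the injected gene, is in this list and is 1 of the 3 that rose with Foxo1AAA (log2 3.53) and 1 of the 8 higher between tumours (3.79). The median log2 changes of the list were -0.89, -0.71 and 0.24. Nr1i3, the xenobiotic receptor CAR, fell from 8.88 to 10.1 FPKM in normal liver to 0.255 to 0.393 in Akt/Nras and 0.710 to 1.21 in Akt/Nras/Foxo1AAA tumours (log2 -2.98 and -2.41, limma adjusted p = 7.29e-09 and 3.81e-08). Ghr, the growth hormone receptor, fell from a mean of 111 FPKM to 10.1 and 16.0 (limma adjusted p = 1.26e-08 and 7.28e-08). Cebpa, a factor of mature hepatocytes, was at 457, 107 and 200 FPKM on average and was higher with Foxo1AAA than without (log2 0.92, limma adjusted p = 0.0112). Nfe2l2, the oxidative stress factor NRF2, rose from a mean of 17.0 FPKM to 42.2 and 37.4 (log2 1.27 and 1.11, limma adjusted p = 5.06e-06 and 2.13e-05).

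Of the 16 hepatocyte markers 14 fell and 1 rose in Akt/Nras tumours, 14 fell and 2 rose in Akt/Nras/Foxo1AAA tumours and 10 were higher between the tumour groups by limma (13 and 2, 13 and 2, and 9 at equal totals), with median log2 changes of -2.53, -1.68 and 0.82. Cyp2e1, a cytochrome of pericentral hepatocytes, fell from 5913 to 6987 FPKM in normal liver to 11.7 to 114 in Akt/Nras tumours (log2 -7.13, limma adjusted p = 1.42e-06) and 322 to 428 in Akt/Nras/Foxo1AAA tumours (-4.08, adjusted p = 0.000123). Hpd, an enzyme of tyrosine breakdown, fell from a mean of 1441 FPKM to 56.2 and 182 (limma adjusted p = 9.37e-07 and 4.99e-05). Markers of bile duct and progenitor cells went the other way, from a summed 25.8 to 32.1 FPKM in normal liver to 4354 to 6003 with Akt/Nras and 2839 to 5584 with Akt/Nras/Foxo1AAA, with 8 and 7 of 8 tested called higher. Most of these sums was Spp1, with means of 16.9, 5032 and 3953 FPKM. Cftr and Cd24a lay under 1 FPKM in every normal liver and passed the filter through tumours alone. Between the tumour groups 5 of the 8 were called lower with Foxo1AAA and none higher (6 and none at equal totals). Among these, named after their values were seen, the epithelial keratin Krt19 averaged 16.4 FPKM with Akt/Nras and 1.77 with Akt/Nras/Foxo1AAA, and the epithelial adhesion gene Epcam 26.6 and 8.01. The sums for stellate cells and fibroblasts were 36.3 to 43.9, 152 to 179 and 98.6 to 132 FPKM, those for macrophages 123 to 186, 140 to 264 and 235 to 255, and those for endothelium 48.9 to 59.7, 50.6 to 64.4 and 58.0 to 68.2. Of 9 stellate cell and fibroblast markers 6 were called higher and 2 lower with Akt/Nras, 5 and 2 with Akt/Nras/Foxo1AAA, and none and 3 between the tumour groups (8 and none, 7 and none, and none and 4 at equal totals). Of 9 macrophage markers 4 were higher and 2 lower, 4 and none, and 1 and none (4 and none, 6 and none, and 1 and none at equal totals), and of 8 endothelial markers 3 and 1, 4 and none, and 1 and none (6 and none, 6 and none, and none and 3 at equal totals). Lymphocyte and neutrophil markers summed to 1.52 to 6.22, 11.7 to 25.2 and 7.51 to 25.3 FPKM, and the 2 of 8 tested were higher in both tumour groups and not called between them. Adipocyte markers, relevant because fat expresses Ces1 genes, summed to at most 1.98 FPKM in any library and were listed at 0 in all Akt/Nras/Foxo1AAA tumours. Enterocyte markers, relevant because the intestine expresses Ces2 genes, summed to 83.1 to 115, 23.5 to 36.5 and 47.4 to 110 FPKM, mostly from Fabp2, and Sis was listed at 0 in every library. The part of these cell types in the levels of the carboxylesterases was not tested.

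Over the 10 libraries, the genes outside the family whose log2(FPKM + 1) tracked Ces3a most closely were Car3 (Pearson r = 0.996), Gamt (0.996) and Slco1a1 (0.995), and 1245 of 12426 other tested genes had an r above 0.95. For Ces3b, which differed most between the tumour groups, they were Fah and Gstz1 (0.999 each) and Slc46a3 (0.998), and 1631 of 12426 genes were above 0.95. These values describe a likeness that rests mainly on the gap between normal liver and tumours, which the libraries share.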

How the data were processed

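Total RNA of 10 mouse livers and liver tumours was sequenced after polyA capture or rRNA removal; the labels' protocols do not say which. Per the file headers, the deposited values are FPKM, 1 column per library. Titles gave each sample's group and replicate number. The submitters' processing notes list FastQC 0.11.7 and GRCm38 without a role; the aligner, counter and annotation were not given in the sources used here. Multiplied by the listed gene length, 99.9% of FPKM above 0 came out as whole reads (within 0.02), which gave depths of 13.6 to 21.3 M reads.

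Genes with at least 1 FPKM in at least 3 of 10 libraries (12439) were tested on log2(FPKM + 1) with limma 3.58.1 in R 4.3.3: all libraries in 1 fit, eBayes with a variance trend, two-sided, Benjamini-Hochberg adjustment over all tested genes for each of the 3 comparisons. FPKM were not rescaled in this test. The fit was tested on simulated data. The members, gene lists and tests were chosen with earlier results of these data known. Named are all family genes, up to 2 called genes per direction and list (not for every list), the 2 neighbours with the highest mean and the 3 genes most like 2 members. Alternatives changed the pseudocount (0.1 and 5), filter, scaling, weights, variance trend, libraries and blocking; voom on recovered reads and rescaling to equal Alb were added after seeing the data. Shared stretches were counted over the GRCm38 transcripts supplied as a reference, and motifs by exact letters in RefSeq windows of GRCm38.p6.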

Additional observations from a re-analysis of the deposited data

Results flagged for a closer look

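Ces2e in normal liver was the one value that stood apart within its group: the second normal liver measured 79.8 FPKM, against 57.6, 59.2 and 60.9 in the others, a gap that exceeds Dixon's 95% critical value for 4 samples. The check was made for 13 carboxylesterase genes in the normal livers, and chance flags about 1 in 20 groups. The same library had the highest value for 6 of the 10 members. Groups of 3 tumours were not tested in this way.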

How the results depend on the processing

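Among members, Ces2e in Akt/Nras tumours against normal liver depended on the scaling: it was -0.11 on the log2 scale as deposited and 0.84 at equal totals, 0.59 at equal totals without the 50 most abundant genes, 0.55 with voom on recovered reads and 0.84 at equal Alb, which took the count of members called higher from 0 to 1 in each of these 4 settings. In these settings 9001 of 12728, 7755 of 12613, 7270 of 12439 and 8738 of 12760 tested genes were called higher, in the same order. As deposited, 3871 of 12439 were. With only the 2 tumour groups in the fit, the count of members higher between tumours went from 7 to 0. Other signs that turned were those of Ces2c in Akt/Nras/Foxo1AAA tumours against normal liver at equal totals (0.0474), Ces2g there at equal totals, without the 50 most abundant genes and at equal Alb (0.23, 0.12 and 0.16), and, between tumours, Ces1d at equal totals, with voom and at equal Alb (-0.0567, -0.00173 and -0.13), Ces1f with array weights (-0.0472) and Ces4a, which lay between -0.0033 and 0.10 when 1 library was left out. The cause was not tested. Over all genes of the family instead of the 10 members, the share of Ces1c was 26.5% in normal liver and 42.7% in Akt/Nras/Foxo1AAA tumours. Between tumours, calls over all genes numbered 514 lower and 986 higher, 5 and 5 with only the 2 groups, 1679 and 1989 with array weights, 328 and 595 without a filter, and 147 to 702 lower and 395 to 1237 higher when 1 library was left out. Replicate numbers were not shown to pair the samples: deviations of same-numbered libraries correlated at -0.17 to 0.11. With a replicate block the calls were 136 lower and 332 higher, and Ces1e (adjusted p = 0.0951), Ces2a (0.0632), Lipc (0.0555), Cebpa (0.0562) and Apoa4 (0.0724) lost their calls between tumours. Ces3b in the Akt/Nras tumours is limited by depth, at 5 to 60 reads.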
